A study of Mus musculus and Homo sapiens with 12 samples.

Results

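The genes described here encode the proteasome, its regulatory particles and its assembly factors. They were taken by name: every row of the 2 deposited expression tables whose symbol starts with PSMA, PSMB, PSMC, PSMD, PSME, PSMF or PSMG followed by a digit. This gave 49 of 11513 rows in the human table and 47 of 10430 rows in the mouse table. Of these, 4 human rows (PSMC3IP, PSMD5-AS1, PSMD6-AS2 and PSMG3-AS1) and 1 mouse row (Psmc3ip) carry the letters but encode a recombination cofactor or antisense transcripts, and they are described apart. The 3 immunoproteasome subunits, PSMB8, PSMB9 and PSMB10, are also kept apart, which left 42 human and 43 mouse genes. The human genes PSMB3 and PSMC1 had no row under these symbols and were not analysed here.

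The proteasome is the main protease for ubiquitin-tagged proteins in the nucleus and cytoplasm. Its 20S core is a barrel of stacked alpha and beta rings, and the proteolytic sites lie inside on PSMB5 (chymotrypsin-like), PSMB6 (caspase-like) and PSMB7 (trypsin-like). The 19S cap, built from a base with ATPases and a lid, binds ubiquitin chains, removes them and feeds the unfolded chain into the core; together they form the 26S proteasome. Interferon and the lymphoid state are known to bring in PSMB8, PSMB9 and PSMB10 in place of PSMB5, PSMB6 and PSMB7, together with the PA28 alpha and beta caps (PSME1 and PSME2), and peptides cut by this form are loaded on MHC class I. The transcription factor NRF1 (gene NFE2L1) is known to raise subunit genes together when proteasome activity is short.

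The study sequenced RNA of 12 libraries, 2 per group, all from T-ALL, a leukaemia of T-cell precursors. KOPTK1, an established human T-ALL line, was kept for 72 h in the carrier DMSO or in the gamma-secretase inhibitor Compound E (gSI), which blocks the release of active NOTCH1. The mouse cells were a leukaemia driven by the delta-E form of NOTCH1, passed into secondary C57BL/6 hosts and sorted from the spleen by GFP after 3 weeks on a diet with 8 (control), 0.8, 0.4 or 0 g/kg of the essential amino acid valine. The protocol instead gives the middle doses as g/L of drinking water added to a valine-free diet, so the diets are used here only as ranks. All mouse groups share the NOTCH1 transgene, and each diet has 1 library named TALL2 and 1 named TALL3; neither what the names stand for nor the age of the mice is given in the labels. Nothing in the labels says that the libraries of a group came from separate cultures or tumours, so the p-values reflect only how these libraries varied, part of which may be technical.

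Recovered read numbers were 22939478 to 42245079 per KOPTK1 library and 14222895 to 37687253 per mouse library. T-lineage genes marked both systems. The 13 human markers summed to 396 to 409 FPKM (fragments scaled for gene length and library size) in DMSO and 240 to 254 FPKM with gSI. Of these, 11 of 11 tested fell, where 30.3% of all genes did. The untested CD4 had a mean of 0.563 FPKM in DMSO and 0.752 FPKM with gSI, and RAG1 of 0.0732 and 0.0626 FPKM. The 14 mouse markers summed to 3006 to 3974 FPKM in the mouse libraries. The mouse libraries were not equal in other cells' RNA. The summed level of 15 neutrophil markers was 0.964 and 10.9 FPKM at 8 g/kg, 12.4 to 14.3 FPKM at 0.8 g/kg, 13.0 and 78.5 FPKM at 0.4 g/kg, and 580 and 347 FPKM at 0 g/kg. In the 8 g/kg library named TALL2, 7 of these 15 (Camp, Ctsg, Elane, Mmp8, Prtn3, Retnlg and S100a8) were listed at 0. The sum over 9 erythroid markers ran the other way, from 95.6 and 254 FPKM at 8 g/kg to 0.569 and 3.40 FPKM at 0 g/kg, where Alas2 and the 4 globin genes were listed at 0 in TALL2. Of 6 macrophage markers the sum was 7.80 and 17.7 FPKM at 8 g/kg and 38.0 and 37.3 FPKM at 0 g/kg. Most of that difference was Lyz2, at 0.140 and 1.47 FPKM at 8 g/kg and 26.7 and 20.9 FPKM at 0 g/kg. Means of the others at 8 and 0 g/kg were 2.49 and 2.49 FPKM (C1qc), 0.621 and 0.595 FPKM (Mrc1) and 3.15 and 2.95 FPKM (Vcam1). Those of Cd68 were 4.33 and 5.52 FPKM, and those of Csf1r 1.36 and 2.31 FPKM. The B-cell gene Cd22 was at 28.7 FPKM in the 0 g/kg TALL3 library and at 6.93 FPKM or less in the other 7. The part of these cells in the diet results was not tested. In bulk samples fewer cells of a type and less RNA per cell cannot be told apart.

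To show the control regions that the later results refer to, upstream sequence is printed for 4 mouse genes: Psmb5 and Psmb6, the constitutive partners of the immunoproteasome subunits, and Psmb3 and Psmd9, whose levels were most below control on the valine-free diet. The letters are from RefSeq (GRCm38.p6), on the strand of the gene and ending at its start or just before the first annotated exon base. Capitals mark matches, on either strand, to TGACNNNGC (the core of the antioxidant response element, a kind of site that NRF1 can bind), the interferon-stimulated response element core (GAAA, then 2 bases of any kind, then GAAA) or CCAAT. The GENCODE record of Psmd9 begins further upstream than the RefSeq start used here.
Psmb5, chr14:54618023-54618245, minus strand: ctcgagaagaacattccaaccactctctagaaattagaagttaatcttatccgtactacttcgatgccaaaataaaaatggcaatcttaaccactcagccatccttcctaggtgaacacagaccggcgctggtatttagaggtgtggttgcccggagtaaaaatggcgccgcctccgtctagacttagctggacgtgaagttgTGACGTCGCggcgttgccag
Psmb6, chr11:70525107-70525356, plus strand: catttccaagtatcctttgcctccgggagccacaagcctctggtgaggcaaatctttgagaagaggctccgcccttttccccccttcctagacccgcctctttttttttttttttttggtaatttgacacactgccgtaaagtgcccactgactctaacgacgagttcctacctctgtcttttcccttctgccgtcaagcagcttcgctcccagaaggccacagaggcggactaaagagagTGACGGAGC
Psmb3, chr11:97703184-97703398, plus strand: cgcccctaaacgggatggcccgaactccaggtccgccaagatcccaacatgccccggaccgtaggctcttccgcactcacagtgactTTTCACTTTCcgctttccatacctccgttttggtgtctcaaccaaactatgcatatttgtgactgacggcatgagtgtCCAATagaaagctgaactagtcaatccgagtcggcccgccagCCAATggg
Psmd9, chr5:123227940-123228189, plus strand: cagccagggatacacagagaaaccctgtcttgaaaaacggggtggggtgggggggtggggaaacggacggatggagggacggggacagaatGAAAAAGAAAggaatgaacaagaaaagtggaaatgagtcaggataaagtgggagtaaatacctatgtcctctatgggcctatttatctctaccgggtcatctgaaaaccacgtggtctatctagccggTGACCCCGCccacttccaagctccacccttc

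Of the 46 mouse members that are proteasome genes, 39 had such a promoter entry. The 250 bases before the RefSeq start were searched on both strands, and no matches of different motifs overlapped. TGACNNNGC was found in 5 of 36 members other than the immunoproteasome (Psmb5, Psmb6, Psmc6, Psmd12 and Psmd9), or 13.9%, against 11.5% of all 27025 genes in the table. The interferon-stimulated response element core was found in 3 of 36 (8.33%; Psmb3, Psmd4 and Psmd9) against 3.46% of all genes, and CCAAT in 12 of 36 (33.3%) against 37.5%. TTCNNNGAA, the core of a GAS site, was found in Psmg1 and Psmb8 and in 8.13% of all genes. None of the 3 immunoproteasome windows held TGACNNNGC or the interferon-stimulated core. The windows of Psmb8 and Psmb9 lay inside their GENCODE gene records, so the sequence upstream of those records was not searched. That of Psmb10 overlapped its record in part. Windows of some other members, such as Psmd13 and Psme1, also lay inside their records. A match is a description of letters, not of binding, and a window with no match says nothing of the factor.

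With the inhibitor, 10 proteasome genes in KOPTK1 passed the test, 3 upward and 7 downward, spread over both rings of the core, the ATPases, the lid, the activators and the assembly factors. The clearest change was PSME1, the alpha chain of the PA28 cap, which fell by 38.7%; its partner PSME2 did not pass the test. The 20S assembly pair PSMG1 and PSMG2, the ATPase PSMC3 and the immunoproteasome subunit PSMB10 also fell, while PSMB4 of the beta ring, PSMD3 of the lid and PSME3, the nuclear PA28 gamma, rose. The calls of PSMB4, PSME3, PSMA4 and PSMD13 held in only 1 of 4 fits that each left out 1 library. Genes averaging 1 FPKM or more were tested with limma on log2(FPKM + 1), on which scale the fold changes below are given. The added 1 shrinks the differences of genes at low FPKM. In mean FPKM PSMG2 fell by 34% at a log2 difference of -0.32, and PSMC3 by 24.3% at -0.37. Of 42 members 32 were tested, 3 rose and 7 fell at an adjusted p below 0.05, against 22.8% and 30.3% (53.1% in either direction) of all 6679 tested genes. Both gSI libraries lay above both DMSO libraries for 6 of 32 (33.9% of all genes) and below for 13 (42.4%), and 13 of 32 had an unadjusted p below 0.05 (58.3%). For the 22 tested 26S subunits the counts were 2 and 4, with a median log2 difference of -0.042, beside -0.031 for all genes.

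**Figure D1:**
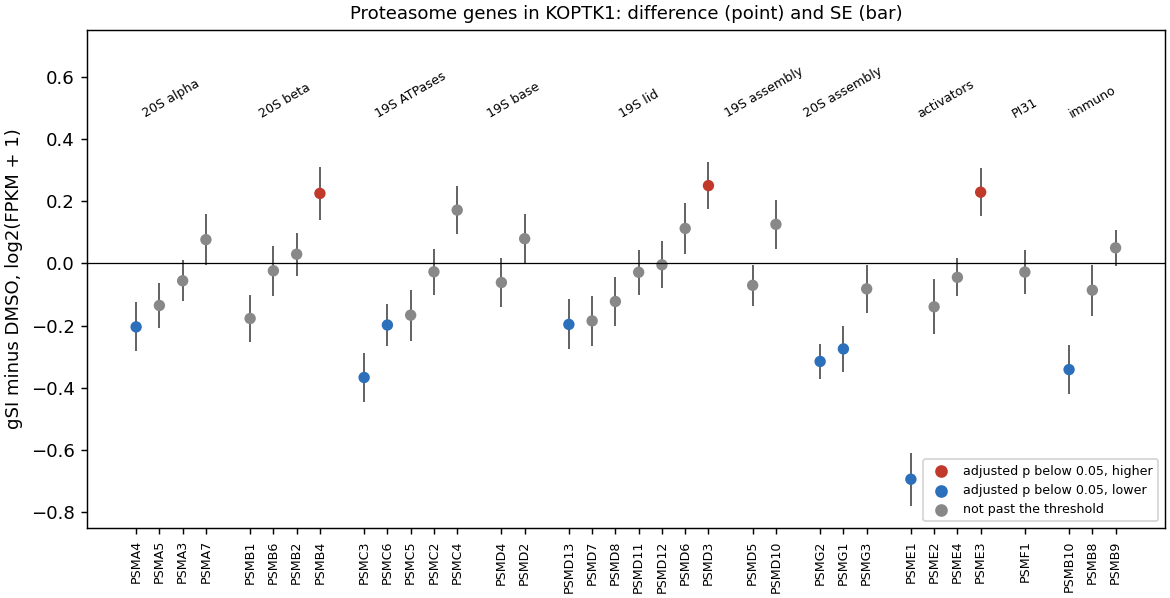
Difference between gSI and DMSO in KOPTK1 for the 35 tested proteasome genes, grouped by role; points are limma log2 fold changes on the log2(FPKM + 1) scale and bars their standard errors. Most points lie within 0.2 of 0, and PSME1 is the lowest at -0.69.

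The caps and activators differed most among themselves. PSME1 stood at 80.3 and 74.8 FPKM in DMSO and 46.1 and 49.0 FPKM with gSI. The groups did not overlap, and limma put the difference at -0.69 (SE 0.0849, adjusted p = 1.33e-07). PSME2, the beta chain that forms one ring with PSME1, was at 10.96 and 9.23 FPKM in DMSO and 8.26 and 9.89 FPKM with gSI. Its groups overlapped (log2 fold change -0.14, adjusted p = 0.189 by limma). PSME3, which forms a ring of its own and works without ubiquitin, rose from 4.96 and 4.70 FPKM to 5.60 and 6.08 FPKM, by 0.23 (adjusted p = 0.0138). PSME4, the single-chain activator PA200, lay at 1.58 and 1.502 FPKM in DMSO and 1.47 and 1.45 FPKM with gSI (adjusted p = 0.56), and the inhibitor PSMF1 (PI31) at 2.85 and 2.73 against 2.68 and 2.76 FPKM (adjusted p = 0.767).

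Within the 20S core single genes of each ring passed the test, where 22.8% of all genes rose and 30.3% fell. In the alpha ring 1 of 4 tested genes fell: PSMA4, a structural subunit, from 12.4 and 11.6 FPKM to 10.04 and 10.5 FPKM (-0.20, adjusted p = 0.0313). In the beta ring 1 of 4 rose: PSMB4, a non-catalytic subunit, from 38.0 and 41.5 FPKM to 46.1 and 47.1 FPKM (0.23, adjusted p = 0.0261). The catalytic PSMB6 stood at 15.1 and 15.7 FPKM in DMSO and 15.6 and 14.8 FPKM with gSI, and its libraries overlapped. The other catalytic genes were under the filter: PSMB5 at 0.860 and 0.848 against 0.745 and 0.792 FPKM, and PSMB7 at 0.680 and 0.672 against 0.609 and 0.664 FPKM. Both lay lower with gSI in both libraries, and for PSMB7 the gSI libraries differed from each other by more than the nearer one did from DMSO.

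All 3 tested assembly factors of the 20S core had a negative difference, as did 54.9% of all genes. Past the threshold 2 of the 3 fell, where 30.3% of all genes did. PSMG1 and PSMG2 pair to build the alpha ring. PSMG1 fell from 5.008 and 4.997 FPKM to 3.95 and 3.97 FPKM (-0.28, adjusted p = 0.00277), and PSMG2 from 1.43 and 1.31 FPKM to 0.921 and 0.887 FPKM (-0.32, adjusted p = 3.23e-05). The third, PSMG3, was at 5.74 and 5.16 against 4.97 and 5.20 FPKM and overlapped. POMP, the maturation factor of the beta ring, was at 2.81 and 2.63 FPKM in DMSO and 2.30 and 2.40 FPKM with gSI and missed the threshold (-0.15, adjusted p = 0.075).

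In the 19S cap, 2 of 5 ATPases fell, where 30.3% of all genes did. PSMC3 went from 12.1 and 12.3 FPKM to 8.99 and 9.50 FPKM (limma: -0.37, SE 0.0784, adjusted p = 0.000291), and PSMC6 from 2.14 and 1.96 FPKM to 1.65 and 1.66 FPKM (-0.20, adjusted p = 0.0131). PSMC4 leaned the other way, from 4.59 and 4.36 FPKM to 4.97 and 5.37 FPKM, short of the threshold (0.17, adjusted p = 0.0597). In the lid PSMD13 fell from 7.20 and 6.23 FPKM to 5.52 and 5.93 FPKM (-0.20, adjusted p = 0.0413), while PSMD3 rose from 5.18 and 5.14 FPKM to 6.14 and 6.52 FPKM (0.25, adjusted p = 0.00698). Neither of the 2 tested non-ATPase base genes passed, nor did the chaperones PSMD5 and PSMD10. Both directions were thus seen within the lid.

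**Figure D2:**
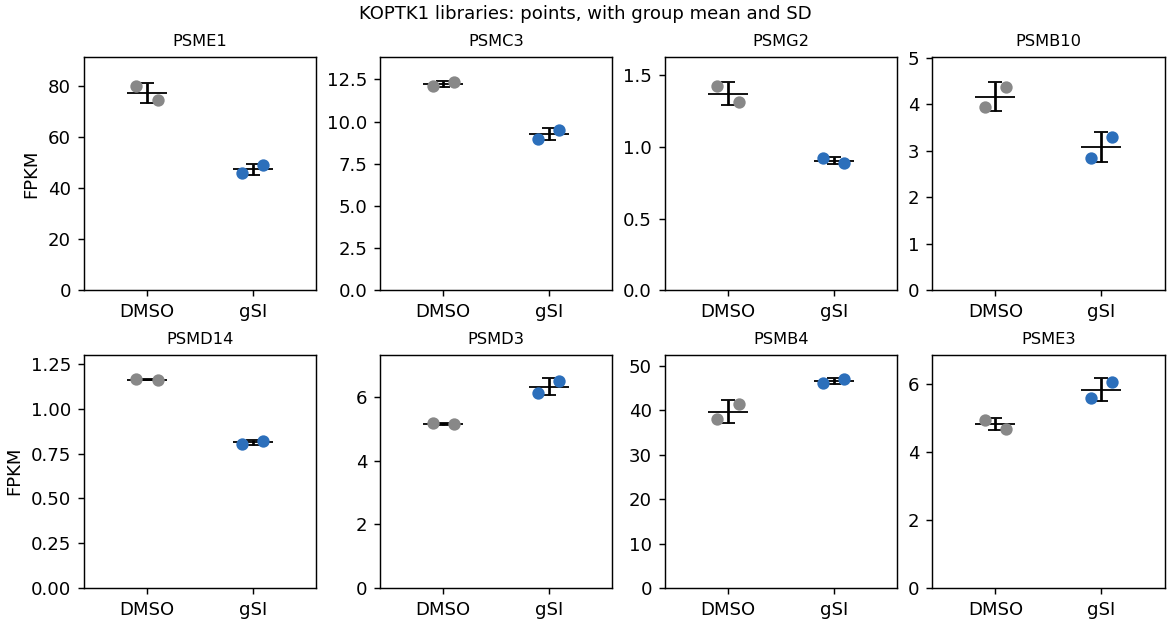
FPKM of 8 proteasome genes in each KOPTK1 library (points), with the group mean and SD, for DMSO and gSI; each axis starts at 0. The 2 gSI libraries of PSME1 lie at 46.1 and 49.0 FPKM, below both DMSO libraries at 80.3 and 74.8 FPKM, and those of PSMD3, PSMB4 and PSME3 lie above.

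The 10 untested members had 25 to 3809 recovered reads per library, since the human table divides by gene lengths with a median of 29957 bp and long genes fall under 1 FPKM. PSMD14, the lid enzyme that cuts ubiquitin chains from substrates, was such a gene, at 1.16 and 1.16 FPKM in DMSO and 0.803 and 0.820 FPKM with gSI. In a fit chosen after seeing the data, limma-voom on the recovered reads, which covered all 42 members, PSMD14 had a difference of -0.52 (adjusted p = 3.98e-08). In the same fit the alpha-ring genes PSMA1 (-0.38, adjusted p = 0.00706) and PSMA2 (-0.59, adjusted p = 3.83e-05) were lower and the chaperone PSMD9 higher (0.29, adjusted p = 0.0419). That fit gave 5 rises and 12 falls, where 25.4% of all genes rose and 28.8% fell, and 3 rises and 9 falls among 30 26S genes. Of PSMA6 only 25 to 56 reads were listed per library. Several subunits have processed pseudogene copies, and the sources used here do not say how reads matching both were counted.

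The immunoproteasome subunits differed among themselves in KOPTK1. PSMB10 was at 3.94 and 4.38 FPKM in DMSO and 2.85 and 3.30 FPKM with gSI, and fell by 26.1% (-0.34, SE 0.0783, adjusted p = 0.000602). PSMB8 lay at 35.8 and 35.6 FPKM against 32.7 and 34.5 FPKM and did not pass (-0.086, adjusted p = 0.392). PSMB9 lay at 1.20 and 1.32 FPKM against 1.34 and 1.33 FPKM and did not pass either (0.050, adjusted p = 0.496). Of 11 tested interferon and MHC class I genes 4 rose and 3 fell, beside 22.8% and 30.3% of all genes. The transcription factor STAT2 rose by 0.59 and the chaperone CANX by 0.32, while IRF1, an activator of immunoproteasome genes, fell by 0.41 (adjusted p = 0.000102; 18.2 and 17.4 FPKM in DMSO, 13.1 and 13.3 FPKM with gSI).

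Genes that serve the proteasome under other names were called about as often as genes at large (53.1%). In the NRF1 pathway 5 of 11 tested genes rose and 1 fell, where 22.8% of all genes rose and 30.3% fell. NFE2L1 itself went from 14.1 and 13.2 FPKM to 17.4 and 18.2 FPKM (0.36, adjusted p = 0.000451). SYVN1 and SEL1L, the membrane ubiquitin ligase and its adaptor that control NRF1 at the endoplasmic reticulum, rose by 0.77 (adjusted p = 1.85e-09) and 0.48 (adjusted p = 1.06e-05), and the extracting ATPase VCP rose by 0.38 (adjusted p = 0.000298). These 3 also serve general protein quality control at the endoplasmic reticulum. NGLY1, which deglycosylates NRF1, fell by 0.20 (adjusted p = 0.00876).

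Among 10 tested proteasome partners 2 rose and 3 fell, a share near that of all genes. TXNL1, a thioredoxin-like protein bound to the cap, fell by 0.54 (adjusted p = 6.11e-07), and UCHL5, a chain-trimming enzyme, fell by 0.49 (adjusted p = 1.24e-06). KIAA0368, the ECM29 scaffold, fell by 0.17 (adjusted p = 0.00995). AKIRIN2, which carries proteasomes into the nucleus, rose by 0.40 (adjusted p = 8.28e-06). Of 11 shuttles and ubiquitin genes 2 rose and 4 fell, again near that share. The polyubiquitin gene UBB rose by 0.32 (adjusted p = 0.00262), and RPS27A, which encodes ubiquitin fused to a ribosomal protein, fell by 0.51 (adjusted p = 6.82e-06).

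PSMC3IP, a recombination cofactor that only shares the letters, fell from 7.09 and 6.27 FPKM to 4.30 and 4.05 FPKM (-0.57, adjusted p = 9.66e-07). The antisense PSMD5-AS1 rose from 3.02 and 2.76 FPKM to 3.66 and 3.78 FPKM (0.28, adjusted p = 0.00236), with its partner PSMD5 at 1.85 and 1.55 against 1.58 and 1.56 FPKM. The use of strand in counting is not stated, so reads of the pair cannot be told apart. Under the filter, PSMG3-AS1 was at 0.542 and 0.519 FPKM in DMSO and 0.784 and 0.974 FPKM with gSI, and PSMD6-AS2 at 0.463 and 0.370 FPKM in DMSO and 0.467 and 0.574 FPKM with gSI. The KOPTK1 counts leaned on single libraries: without gSI replicate 1 the called members were 4 and without gSI replicate 2 they were 3, against 10 with all libraries. PSME1, PSMC3 and PSMG2 passed in each of the 4 fits that left out 1 library, and quantile scaling changed the split to 7 rises and 5 falls. PSMB10 reached an adjusted p of 0.0724 without gSI replicate 1.

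In the mouse libraries, where FPKM is per length close to that of transcripts (median 3180 bp), the members can be set against one another. The mean level of the 31 26S subunits over the 8 libraries had a median of 80.1 FPKM and ran from 3.49 FPKM (Psma3) to 211 FPKM (Psma6). In the assembled core the alpha subunits occur in equal number, so these transcript levels did not follow that. The 3 assembly chaperones of the 19S base were all low, at 14.95 (Psmd9) to 17.7 FPKM (Psmd10). The 20S chaperones (Psmg1 to Psmg4) lay between 18.7 and 42.1 FPKM, the PI31 gene Psmf1 at 18.2 FPKM, and the activators between 22.5 (Psme4) and 141 FPKM (Psme3). Psmb8, the second highest member, stood at 176 FPKM, above its constitutive counterpart Psmb5 at 17.9 FPKM. Psmb9 at 27.6 FPKM stood below its counterpart Psmb6 at 136 FPKM, and Psmb10 at 76.2 FPKM above Psmb7 at 39.1 FPKM. The order between each of these pairs was the same in all 8 libraries.

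The 26S genes varied less between libraries than the typical gene. Their median coefficient of variation over the 8 libraries was 6.78%, beside 12.6% for all tested genes, and in KOPTK1 7.88% beside 11.7%. The sets were not matched for level. In mouse the 26S median was 80.1 FPKM, and that of all tested genes 14.2 to 15.3 FPKM per library. The part of level in this difference was not tested. Psmc3 (3.45%) and Psmd4 (3.47%) varied least, and Psmc1 (14.0%) and Psmb3 (13.8%) most among 26S genes. The immunoproteasome gene Psmb9 varied more than any 26S gene, at 19.5%.

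On the valine-free diet most 26S genes lay a little under the control diet, with no single gene past the threshold. The 31 genes summed to 2759 and 2805 FPKM at 8 g/kg, 2587 and 2703 FPKM at 0.8 g/kg, 2640 and 2775 FPKM at 0.4 g/kg, and 2651 and 2462 FPKM at 0 g/kg. The lowest library was the 0 g/kg TALL3 library and the highest the 8 g/kg TALL3 library, and every 0 g/kg value lay under both controls. For 0 against 8 g/kg, limma called 0 of the 43 members (0% of the 9943 tested genes in each direction), and voom called 0 as well; 8 members reached an unadjusted p below 0.05, where 10.3% of all genes did. For 18 of 31 26S genes the 0 g/kg pair was entirely under the control pair and for 2 (Psmc4 and Psmd2) entirely over it, while 22.9% of all genes lay below and 19.1% above. The log2 difference was negative for 26 of 31 (52.2% of all genes), with a median of -0.14, beside -0.013 for all genes.

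**Figure D3:**
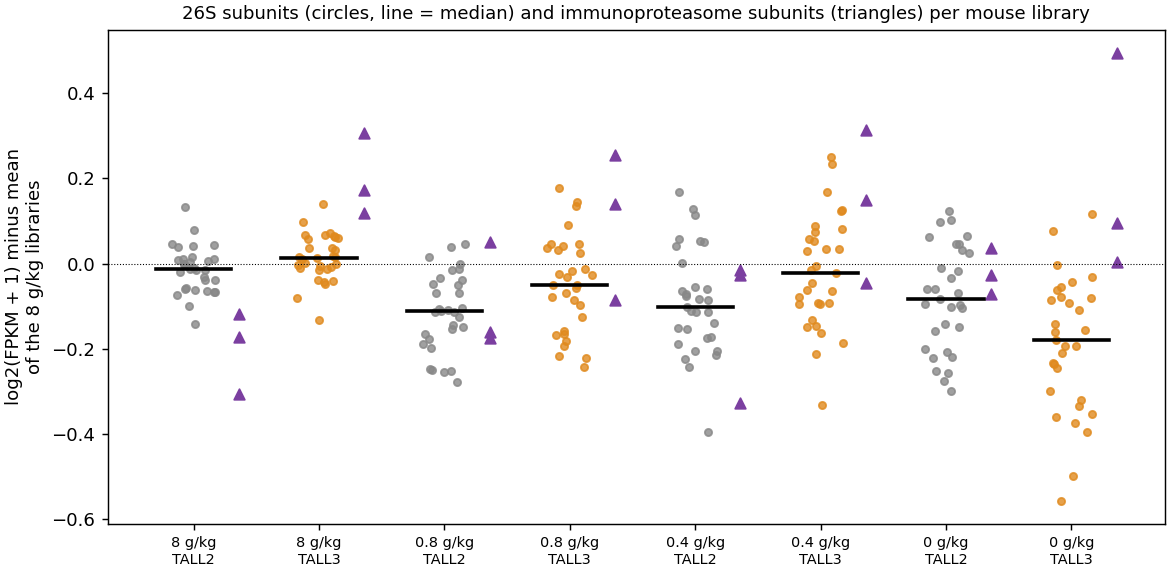
Each circle is 1 of the 31 26S subunits in 1 mouse library, as log2(FPKM + 1) minus the mean of the 2 control libraries (8 g/kg), with the median as a line; triangles are Psmb8, Psmb9 and Psmb10. Most circles of the 0 g/kg TALL3 library lie below 0, while its 3 triangles lie at or above 0.

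By role, 8 of 8 lid genes and 7 of 7 constitutive beta genes had a negative difference, as did 52.2% of all genes. Of these, 7 and 5 had both libraries below both controls, as did 22.9% of all genes. Of the ATPases 4 of 6 were negative, with 1 above control and none with both libraries below control. Within each library name, 29 of 31 26S genes were lower at 0 than at 8 g/kg in TALL3, where 51.1% of all tested genes were, and 21 of 31 in TALL2, where 53.4% were. Leaving out the 0 g/kg TALL3 library brought the median difference to -0.084. These same 0 g/kg libraries carried the highest neutrophil sums (580 and 347 FPKM), whose part in the differences was not tested.

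The gene furthest below control was Psmd9 (chr5:123169413-123250131, plus strand), a chaperone that holds ATPases during assembly of the base. It stood at 18.6 and 18.8 FPKM at 8 g/kg, 12.8 and 16.1 FPKM at 0.8 g/kg, 12.9 and 13.6 FPKM at 0.4 g/kg, and 14.7 and 12.02 FPKM at 0 g/kg. All 6 libraries of the restricted diets lay under both controls, and the log2 differences were -0.36, -0.47 and -0.46 in that order (limma adjusted p = 0.998, 0.411 and 0.407). Psmb3 (chr11:97703399-97713500, plus strand), a non-catalytic beta subunit, was also under control in each diet: 32.6 and 30.5 FPKM at 8 g/kg, 26.3 and 26.9 FPKM at 0.8 g/kg, 23.7 and 24.8 FPKM at 0.4 g/kg, and 25.9 and 21.1 FPKM at 0 g/kg. Again every restricted library lay under both controls (-0.42 at 0 g/kg, limma adjusted p = 0.372).

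Psmd1 (chr1:86064387-86139151, plus strand), the large scaffold of the 19S base that docks ubiquitin receptors, went from 91.4 and 96.3 FPKM at 8 g/kg to 77.2 and 85.9 FPKM, 81.2 and 83.7 FPKM, and 76.0 and 71.1 FPKM as valine fell. It had the smallest p of all members at 0 g/kg (-0.35, SE 0.0869, adjusted p = 0.371 by limma). Psma6 (chr12:55384222-55418454, plus strand), an alpha subunit, was at 236 and 235 FPKM in the controls and 197 and 210, 211 and 212, and 202 and 183 FPKM in the falling diets (-0.29 at 0 g/kg, adjusted p = 0.391). Psmb2 (chr4:126677630-126709714, plus strand), a beta subunit, was at 173 and 177 FPKM in the controls, 155 and 171 FPKM at 0.8 g/kg, 152 and 164 FPKM at 0.4 g/kg, and 152 and 140 FPKM at 0 g/kg (-0.26 at 0 g/kg, adjusted p = 0.44). None of these genes passed the test. Their control and restricted libraries did not overlap in any of the 3 diets. However, the genes were picked for their low values at 0 g/kg, and the diets share the control libraries. In single diets 22.5% to 31.8% of all genes lay below both controls, and the share doing so in all 3 was not counted.

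**Figure D4:**
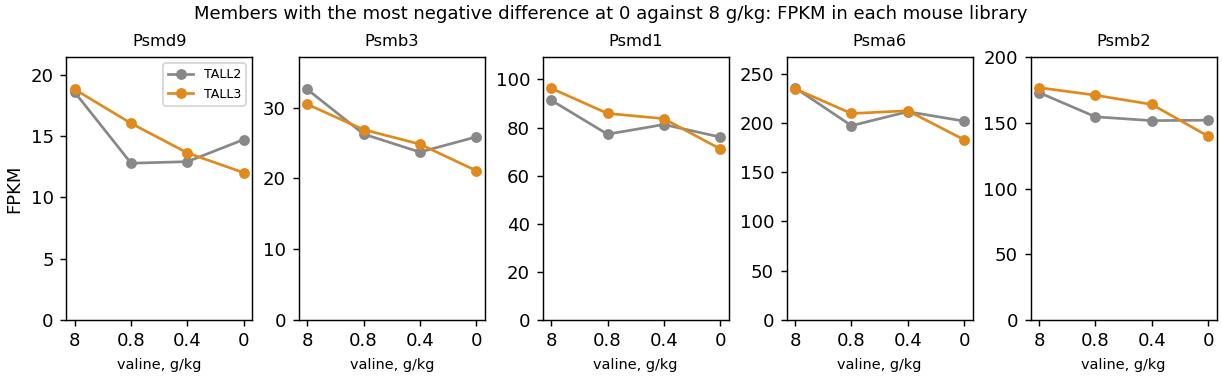
FPKM of Psmd9, Psmb3, Psmd1, Psma6 and Psmb2 in each mouse library, by diet from 8 to 0 g/kg valine, with TALL2 and TALL3 libraries as separate lines and axes from 0. These genes were picked as the most negative members at 0 against 8 g/kg. For each gene the 6 restricted-diet points lie under both 8 g/kg points, such as 12.02 to 16.1 FPKM under 18.6 and 18.8 FPKM for Psmd9.

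The catalytic core genes mostly overlapped with control. Psmb5 lay at 17.2 and 21.1 FPKM at 8 g/kg, 17.6 and 15.96 FPKM at 0.8 g/kg, 16.8 and 18.99 FPKM at 0.4 g/kg, and 17.2 and 17.9 FPKM at 0 g/kg, all within or near the control pair. Psmb6 lay at 129 and 140 FPKM in the controls, 124 and 138, 139 and 146, and 140 and 128 FPKM in the falling diets, with no separation. Psmb7 lay at 40.2 and 44.1 FPKM in the controls, 36.8 and 41.6, 38.1 and 40.3, and 35.97 and 35.4 FPKM; only at 0 g/kg were both libraries below both controls. Outside the catalytic core, the lid gene Psmd14 was at 105.1 and 103.5 FPKM in the controls. It was at 95.6 and 99.4, 96.4 and 103.1, and 99.99 and 91.1 FPKM in the falling diets. The activator Psme3 was at 158 and 145 FPKM in the controls and 134 to 140 FPKM in all 6 restricted libraries. For both genes every restricted library lay under both controls. In single diets 22.5% to 31.8% of all genes lay below both controls.

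The members furthest above control at 0 g/kg were Psme2, Psmb9, Psmc4, Psmd2 and Psmg3, and Psmc3ip, which shares only the letters (0.32, adjusted p = 0.654). Psme2 (chr14:55587441-55591113, minus strand), the PA28 beta chain, was at 34.6 and 39.3 FPKM in the controls, 39.1 and 40.1 FPKM at 0.8 g/kg, 39.4 and 46.2 FPKM at 0.4 g/kg, and 40.7 and 47.8 FPKM at 0 g/kg (0.25 at 0 g/kg, limma adjusted p = 0.53). Its partner Psme1 (chr14:55578123-55581529, plus strand) did not separate, at 108 and 114 FPKM in the controls and 107 and 115 FPKM at 0 g/kg. Psmc4, an ATPase, was at 95.1 and 109.1 FPKM in the controls and 109.5 and 110.4 FPKM at 0 g/kg (0.11), and Psmd2, the other large scaffold of the base, at 70.6 and 73.8 against 75.5 and 76.2 FPKM (0.071). Psmg3 overlapped, at 17.6 and 19.1 against 19.8 and 18.9 FPKM (0.068).

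The milder diets, which share their control libraries with the comparison above, had medians over the 26S genes nearer to those of all genes. At 0.4 g/kg the median was -0.068 (all genes -0.051); 14 of 31 lay below both controls and 4 above, with 31.8% and 16.9% of all genes. Limma and voom called 0 members (0% of genes), and 4 of 43 had an unadjusted p below 0.05, where 10.7% of genes did. Besides Psmd9 (-0.47) and Psmb3 (-0.36), the most negative were Psma2 (-0.20), Psmb10 (-0.19) and Psmd1 (-0.18). The most positive were Psme2 (0.20), Psmd2 (0.20; 81.2 and 85.0 FPKM), Psma1 (0.19; 137 and 139 FPKM in the controls, 151 and 164 FPKM at 0.4 g/kg), Psmb9 (0.15) and Psmc4 (0.14). At 0.8 g/kg the median was -0.081 (all genes -0.041); 15 of 31 lay below and 1 above, with 22.5% and 10.6% of all genes. Both tools called 0 members (0% of genes), and 2 of 43 had an unadjusted p below 0.05, where 4.35% of genes did. The most negative there were Psmd9 (-0.36), Psmb3 (-0.24), Psma6 (-0.21), Psmd1 (-0.20) and Psmb5 (-0.18), besides Psmc3ip (-0.23), and the most positive Psme2 (0.10), Psmb8 (0.095), Psmd2 (0.080), Psmc4 (0.070) and Psmb9 (0.047). The sign of Psmb8, Psmc4 and Psmb9 at 0.8 g/kg turned when the TALL2 control library was left out. The adjusted p in both diets was at least 0.411 for every member.

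Ranked over the 4 diets, 24 of 31 26S genes had a negative slope, as did 53.3% of all genes. The 26S median was -0.035 on the log2 scale per diet step, beside -0.0062 for all genes. Psmb3 (-0.14 per step) and Psmd1 (-0.10) had the smallest p (limma adjusted p = 0.243 and 0.258). Limma and voom called 0 members for the slope (0% of genes), with 10 of 43 at an unadjusted p below 0.05 beside 12.3% of all genes. The test for any difference between diets also called 0 (0% of genes), with 3 of 43 beside 6.31%.

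The partner lists gave no call under any diet either (0 of 13 partners, 12 NRF1 pathway genes, 11 shuttles and ubiquitin genes and 15 interferon and MHC class I genes). Ufd1l, the VCP cofactor that helps draw proteins from the endoplasmic reticulum, stood out in level: 38.7 and 37.6 FPKM in the controls, 30.6 and 29.9 FPKM at 0.8 g/kg, 27.7 and 28.6 FPKM at 0.4 g/kg, and 31.7 and 30.9 FPKM at 0 g/kg. Its libraries did not overlap with control in any diet (-0.33, -0.43 and -0.28; limma adjusted p = 0.998, 0.389 and 0.371). Next to it by p were Maff (0.95) at 0 g/kg, Mafk (-0.38) at 0.4 g/kg and Nploc4 (-0.19) at 0.8 g/kg, and Nfe2l1 overlapped at 0 g/kg, at 18.8 and 20.6 against 16.8 and 23.0 FPKM. Among partners Zfand2a (0.34) and the ECM29 gene AI314180 (-0.24) had the smallest p at 0 g/kg, Zfand2a (-0.23) and Zfand5 (-0.33) at 0.4 g/kg, and Usp14 (-0.12) and Zfand5 (-0.21) at 0.8 g/kg. Pomp was level, at 24.1 and 24.1 FPKM in the controls and 25.6 and 24.1 FPKM at 0 g/kg. Among shuttles and ubiquitin genes Rps27a had a difference of 0.40 at 0 g/kg, and Bag6 of -0.19 at 0.4 g/kg and -0.16 at 0.8 g/kg. In the MHC class I list the smallest p were those of Calr (0.34) and Tap2 (0.34) at 0 g/kg, Canx (0.22) and Calr (0.34) at 0.4 g/kg, and Calr (0.31) and Canx (0.12) at 0.8 g/kg. The largest difference at 0 g/kg was that of H2-K1 (0.86, adjusted p = 0.78). All 15 genes of that list had a positive difference at 0 g/kg (median 0.33), while 52.2% of all genes had a negative one. The part of the neutrophil and macrophage sums given above, the latter mostly Lyz2 at 0 g/kg, was not tested. Within TALL3 all 15 were higher at 0 than at 8 g/kg, and within TALL2 9 were higher and 6 lower, B2m among them at 1446 against 1575 FPKM.

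The immunoproteasome genes overlapped between diets, and within each diet the TALL3 library was the higher one. Psmb9 (chr17:34181987-34187764, minus strand), which lies beside the peptide transporter gene Tap1 in the MHC region, was at 20.1 (TALL2) and 31.3 FPKM (TALL3) at 8 g/kg, 22.3 and 30.2 FPKM at 0.8 g/kg, 24.8 and 31.5 FPKM at 0.4 g/kg, and 24.6 and 35.8 FPKM at 0 g/kg. Every TALL3 value lay above every TALL2 value. For diet the libraries overlapped, the log2 difference at 0 against 8 g/kg being 0.23 (limma adjusted p = 0.799 or above for all 3 immunoproteasome genes), and it turned to -0.073 without the TALL2 control library and to -0.027 when the 0 g/kg TALL3 library was left out. Psmb8 (chr17:34197721-34201454, plus strand) was at 156 and 184 FPKM at 8 g/kg, 175 and 187 FPKM at 0.8 g/kg, 166 and 188 FPKM at 0.4 g/kg, and 174 and 181 FPKM at 0 g/kg. Psmb10 (chr8:105935735-105938444, minus strand) was at 71.4 and 90.9 FPKM, 71.3 and 75.9 FPKM, 64.0 and 78.1 FPKM, and 76.6 and 80.9 FPKM in the same order. TALL3 was the higher library of the pair for all 3 genes in all 4 diets.

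**Figure D5:**
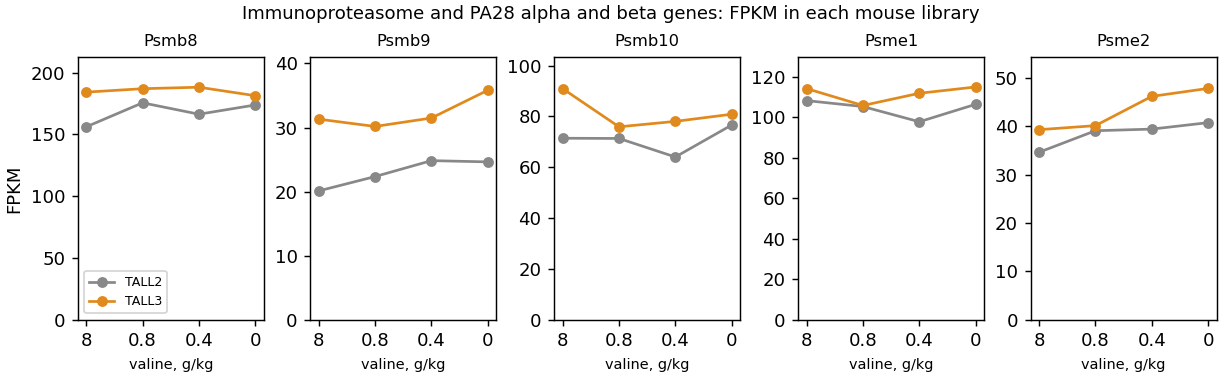
FPKM of Psmb8, Psmb9, Psmb10, Psme1 and Psme2 in each mouse library, by diet from 8 to 0 g/kg valine, with TALL2 and TALL3 as separate lines and axes from 0. The TALL3 line lies above the TALL2 line at each diet, by the widest relative margin for Psmb9 (31.3 against 20.1 FPKM at 8 g/kg).

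This comparison of names was chosen after the values were seen. Fitted with diet as a term, Psmb9 was higher in TALL3 by a log2 difference of 0.47 (SE 0.0703, limma adjusted p = 0.122), Psmb10 by 0.20 (adjusted p = 0.314) and Psmb8 by 0.14 (adjusted p = 0.359), and none passed. TALL3 was above in all 4 diets for 3 of 3 immunoproteasome genes, for Psme1 and Psme2, and for 3 of 31 26S genes, with 13.5% of all genes above. It was below in all 4 diets for 2 of 31 26S genes (Psma3 and Psmc1) and for Psme4, with 9.85% of all genes below. Limma called 0 of the 43 members, as did voom, where limma called 1 of 9943 genes, lower in TALL3 (0.0101%), and voom called 0.0192% of genes higher and 0.00959% lower; 3 of 43 had an unadjusted p below 0.05 beside 14.7% of genes. Psmc1, an ATPase, lay at 93.7 and 77.8 FPKM at 8 g/kg and 93.1 and 60.2 FPKM at 0 g/kg.

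TALL3 was also above TALL2 in all 4 diets for 11 of 15 interferon and MHC class I neighbours, with 13.5% of all genes above. The class I heavy chain H2-K1 was at 39.7, 39.0, 46.1 and 50.1 FPKM in TALL2 and 110, 93.9, 112 and 292 FPKM in TALL3, from 8 to 0 g/kg (1.62, limma adjusted p = 0.122). Nlrc5, the class I transactivator, was at 1.90, 1.24, 1.91 and 1.03 FPKM in TALL2 and 8.97, 5.64, 6.41 and 19.4 FPKM in TALL3 (2.01, adjusted p = 0.139). Tap1 was at 21.3, 19.7, 22.4 and 23.2 FPKM in TALL2 and 34.6, 32.7, 30.9 and 58.8 FPKM in TALL3 (0.78, adjusted p = 0.151), and Irf1 at 37.2, 39.5, 33.8 and 42.5 FPKM against 54.1, 42.2, 46.8 and 72.0 FPKM (0.46, adjusted p = 0.21). For these 4 genes the highest value was that of TALL3 at 0 g/kg, the library in which the 26S sum was lowest and Cd22 highest. The names also differ in T-lineage genes, 6 of 14 having an unadjusted p below 0.05 (smallest adjusted p = 0.0656), and at 8 g/kg Ptcra stood at 10.3 (TALL2) and 70.4 FPKM (TALL3). They differ in other cells' RNA as well: the erythroid sum was higher in TALL3 at 8 and 0 g/kg and lower at 0.8 and 0.4 g/kg, and the neutrophil sum was higher in TALL3 at 8 and 0.4 g/kg. Their part in these differences was not tested.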

How the data were processed

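The deposited values are FPKM per gene and library, made by the authors, 1 table per species; the submitters' processing notes name STAR, edgeR, hg19 and mm10 with no roles. The sources used here do not give the gene model, lengths, multi-mapping or strand settings. Libraries were made with a directional kit, per the labels' protocols. All columns were used, and the tables were analysed apart. Genes averaging 1 FPKM or more were tested with limma 3.58.1 (R 4.3.3) on log2(FPKM + 1), with a trended prior, two-sided; p-values were adjusted by Benjamini-Hochberg over all tested genes, with a threshold of 0.05; the 4 diets were fitted together. Reads were recovered from the FPKM steps, which gave whole gene lengths (tolerance 0.01 bp) for 95.8% of genes in the human table and 99.9% in the mouse table, so they are estimates; human symbols were missing for 797 rows. Replicates differed beyond counting noise in every group. Limma-voom on these reads (mean of at least 10) was an added alternative and called 6234 of 11513 human genes. Coordinates are from GENCODE on GRCm38; human coordinates were not used here. The members and lists were chosen with earlier results of these data known. Genes named with values are the catalytic and immunoproteasome subunits, PSME1 to PSME3, PSMD14, the 5 largest rises and falls per comparison (past the threshold where any pass) and, per partner list, up to 4 past the threshold or the 2 with the smallest p. Others were chosen after their values were seen, among them PSMA1, PSMA2 and PSMD9 in KOPTK1. Alternatives were pseudocounts of 0.1 and 5, no filter or 5 FPKM, 2 other scalings, no trend, a replicate block, only the diets compared, and leaving out each library. Some genes of the partner lists that this rule would name are not reported here.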

Additional observations from a re-analysis of the deposited data

How the results depend on the processing

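With 2 libraries per group each fit that left out 1 library assumed that the lone one varied like the rest. In KOPTK1 the members called were 10; leaving out each library gave 3 to 12, a filter at 5 FPKM gave 6 of 17 tested, and voom on recovered reads gave 17 of 42. Of the 11 called genes with PSMB10 counted, 3 passed in all 4 fits without 1 library (PSMC3, PSME1 and PSMG2) and 4 in 1 of them (PSMA4, PSMB4, PSMD13 and PSME3). The median over 26S genes was -0.042 and became -0.092 with the filter at 5 FPKM, 0.0090 with quantile scaling and -0.086 with voom, and PSMB8 turned to 0.10 with quantile scaling; the cause was not tested. No scaling moved the median of all genes by over 0.1. In the mouse comparisons 0 members were called under every alternative run. The 26S median for 0 against 8 g/kg ranged from -0.18 to -0.084 when each library was left out, and for 0.4 g/kg it was -0.011 with median-of-ratios scaling. Leaving out single libraries reversed Psmb9 at 0 g/kg (-0.073 to 0.54), 0.4 g/kg (-0.16 to 0.46) and 0.8 g/kg (-0.26 to 0.35), and Psmb8 (-0.024 to 0.21) and Psmc4 (-0.039 to 0.18) at 0.8 g/kg. Deviations of same-numbered libraries correlated at 0.26 in KOPTK1 and -0.17 to 0.74 in mouse, above 0 in 5 of 6 pairs of diets. Since the labels give no shared source and not every pair was above 0.1, the libraries were not fitted as pairs; whether the names mark a shared source was not tested. With the replicate block 12 members were called in KOPTK1 and 0 in each mouse comparison.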
